A study of Arabidopsis thaliana with 18 samples.

Results

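The 144 probe sets described here gave the most unlike signals on the 3 silent control arrays of an Arabidopsis sound experiment. They were chosen from their measured values, as the 150 probe sets with the largest range over the 3 control arrays among the 12873 whose mean log2 signal over all 18 arrays was at least 6, out of 22746 plant probe sets on the ATH1 array. EXO, CML38, AT2G20670, AT3G15450, AT5G19120 and AT3G62950, which were among the 150, were then left out, which removed 6, and AT3G07350, also to be left out, was not among them. A probe set is a group of short probes that together measure 1 transcript, and 54 members were annotated with 1 gene, 1 with several and 89 with none, so that the genes named below are part of the members. Col-0 rosettes of 20-day-old plants, grown in continuous light, received 1 h of sound at 80 dB and 250, 500, 1000, 2000 or 3000 Hz in a noiseless chamber, and control plants were kept in such a chamber without sound for the same time. Each of the 6 groups had 3 arrays labelled as biological replicates, with harvest right after the exposure. The 15 sound arrays are set against the 3 controls below as a description, because the controls chose the members, and the tests compare sound frequencies with one another without any control array.

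Leaf transcripts are known to respond quickly to light, touch, wounding and the supply of sugar, through transcription factors, calcium signals and changes in the cell wall. Wall-loosening, light-signalling, defence and hormone-inactivating genes are well known for such quick changes. Plants of one control group share their treatment, so the range of a gene over them holds differences between plants, between harvests and between arrays, which cannot be told apart here. Roles given to genes listed by locus number alone are general background and do not come from the annotation used.

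The label of rosette tissue was met by the 1 mesophyll marker annotated on the array, RCA, the activator of the carbon-fixing enzyme Rubisco, at 14.09 to 14.32 on the sound arrays and 14.24 to 14.3 on the controls. The 3 pollen markers measured lay near background, with a mean of 3.9 to 4.137 over all arrays, and no flower or seed marker was annotated. The median log2 signal of all probe sets was 6.51 to 6.63 on the sound arrays and 6.59, 6.53 and 6.61 on control replicates 1, 2 and 3. Across 24 probe sets for poly-A spikes, the RNA added to each sample before labelling, the mean was 6.343 ± 0.157 at 2000 Hz and 6.185 ± 0.18 at 3000 Hz, against 5.374 to 5.591 on the arrays of the 3 lower frequencies and 5.457 ± 0.042 in the controls (SD, n = 3 each). The labels do not name a labelling set, but this measure split the sound arrays by frequency, so a difference between the 2 higher and the 3 lower frequencies cannot be told apart from a difference in labelling.

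Control replicates 1 and 2 stood at opposite ends for most members. Of the 144, 62 were highest on control replicate 2 and lowest on 1, or 43.1%, against 17.8% of the 12873. The other way round were 28, or 19.4%, which is not above the 22.1% of the 12873. A further 15 were highest on 1 and lowest on 3 (10.4% against 15.4%). Highest on 2 and lowest on 3 were 13 (9.03% against 11%). Highest on 3 were 11 with the lowest on 1 (7.64% against 17%) and 15 with the lowest on 2 (10.4% against 16.5%). The range over the controls was 2.41 to 5.3 log2 units with a median of 2.79, where the median over the 12873 probe sets was 0.41. One control stood clearly apart, with the other pair within 0.333 of the range of each other, for 79 members, or 54.9%, against 65.9% of the 12873. It was replicate 2 in most of these members, high in 36 and low in 10. Replicate 1 was high in 13 and low in 5, and replicate 3 high in 14 and low in 1. Among the 8484 such probe sets of the 12873, replicate 2 was high in 1086 and low in 1591. There replicate 1 was high in 1884 and low in 1540, and replicate 3 high in 1413 and low in 970. At the edge of the choice, AT5G44680, a DNA glycosylase family gene, and AT1G35350, a member of the PHO1 phosphate transporter family, had a range of 2.41 and were kept, and 2 probe sets without a gene had 2.4 and were not. The range over the 15 sound arrays had a median of 1.91 over all 144 members. It was narrower than that over the controls for 111 members and wider for 33, which is 22.9% of the members against 82.7% of the 12873.

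**Figure D1:**
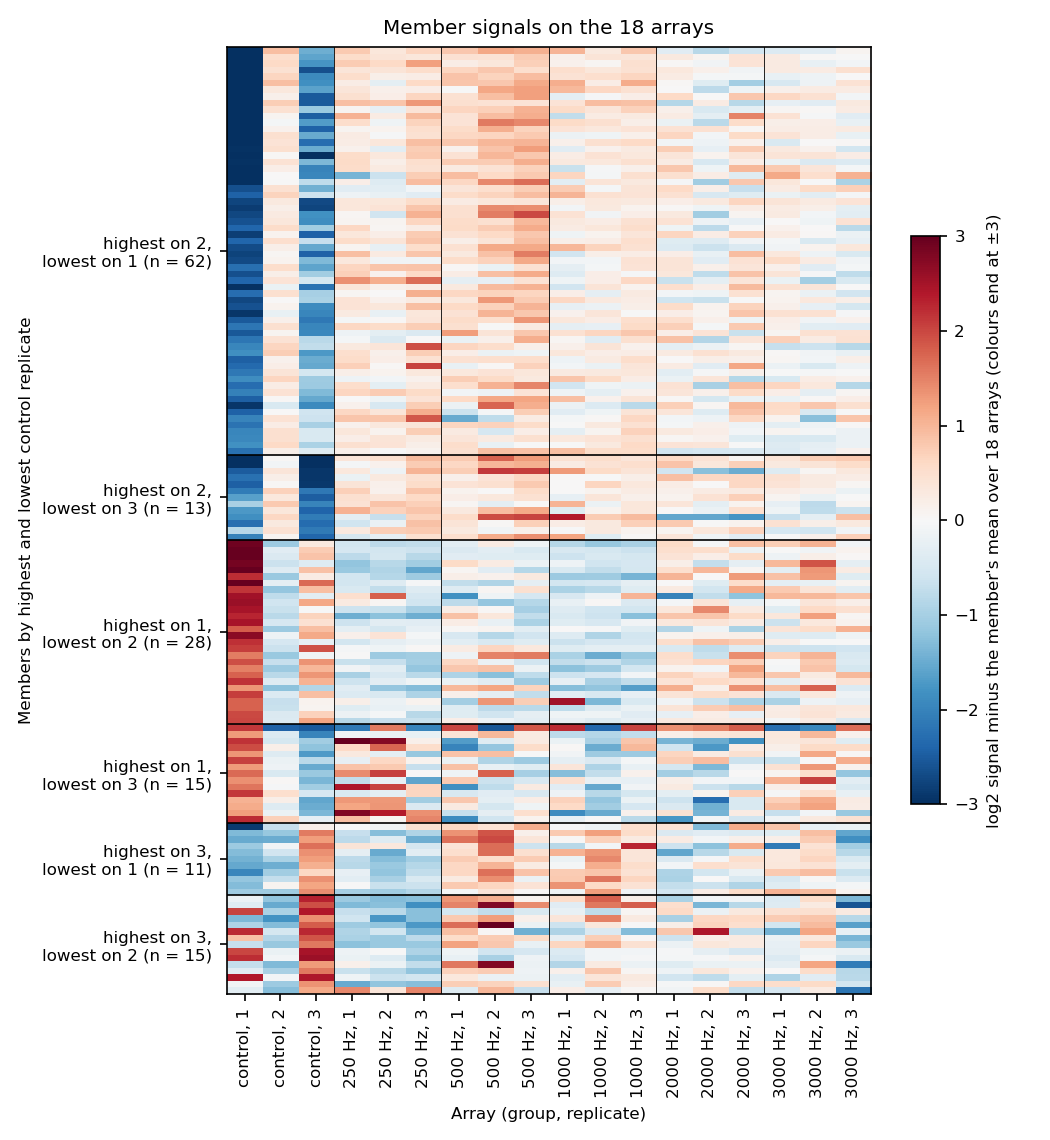
Log2 signal of each of the 144 members (rows) on the 18 arrays (columns), minus that member's mean over 18 arrays, with members ordered by their highest and lowest control replicate. In the block of 62, control replicate 2 has colours near those of the sound arrays and control replicate 1 is the lowest.

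For many members the sound arrays lay nearest to control replicate 2. All 15 sound arrays were nearer to control replicate 2 than to 1 or 3 for 48 members, or 33.3%, against 5.02% of the 12873, and at least 12 were for 76. That is 52.8% of members, against 19.2% of the 12873. For 8 members, or 5.56%, at most 3 sound arrays were nearest to it, against 21.7%, and for 7, or 4.86%, all 15 lay within the controls, against 2.04%. These counts contain the control values that made the choice and are descriptions. A given sound array lay above all 3 controls for 14 to 63 members and below all 3 for 2 to 24. The arrays lay above the controls for 35 to 58 members at 250 Hz, 49 to 63 at 500 Hz and 31 to 47 at 1000 Hz. At 2000 Hz they did so for 14 to 34 members, and at 3000 Hz for 23 to 32. In these counts the arrays of 500 Hz overlapped with those of 250 Hz and with no others. The same counts were not made over the 12873. They therefore have no background share and are not a result about the members.

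AT2G44500, an O-fucosyltransferase family gene, is a plain case. Its log2 signal was 9.07 at the lowest, 9.44 at the median and 10.1 at the highest of the 15 sound arrays, against 5.58, 9.15 and 6.6 on control replicates 1, 2 and 3. Control replicate 2 thus lay within the sound arrays and the other 2 controls lay below every one of them. AT2G15020, whose controls also differed widely, is no member, since its mean of 4.67 was below 6. It had the opposite form, at 3.88 to 4.7 with a median of 4.24 on the sound arrays, against 8.01, 3.9 and 7.87 on the controls, so that here too control replicate 2 was the one among the sound arrays.

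AT5G61590, ATG8E and EXLA1 were among the members lowest on control replicate 1. AT5G61590, known as DEWAX, a repressor of cuticular wax genes, was at 11.79 to 12.56 with a median of 12.16 on the sound arrays, against 7.96, 12.3 and 10.2 on the controls. ATG8E, a ubiquitin-like protein of the autophagosome membrane, was at 9.41 to 10.98 with a median of 10.18 on the sound arrays, against 6.91, 10.32 and 8.53. EXLA1, an expansin-like wall protein, was at 11.3 to 12.52 with a median of 11.83 on the sound arrays, against 8.92, 11.87 and 9.68. In all of these, control replicate 2 lay among the sound arrays, and the other controls lay below them, replicate 1 the lowest.

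The same order was found in genes of other kinds. AT1G23390, a kelch-repeat F-box gene that acts on chalcone synthase in the flavonoid pathway, was at 9.81 to 11.43 on the sound arrays and 7.45, 10.66 and 8.46 on the controls. AT1G02660, a lipase of the plastid, was at 7.21 to 10.23 on the sound arrays and 5.51, 8.51 and 6.43 on the controls. AT3G56200, of an amino acid transporter family, was at 9.87 to 10.86 on the sound arrays and 7.97, 10.39 and 9.21 on the controls. AT5G62280, whose role is not given here, differed in form, since control replicate 3 at 7.79 was above replicate 2 at 6.94, with replicate 1 at 4.76 and the sound arrays at 6.32 to 8.75.

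HYH, IAGLU and AT3G44450 were among the members lowest on control replicate 2. HYH, a bZIP transcription factor related to HY5 in light signalling, was at 5.29 to 7.99 with a median of 6.82 on the sound arrays, against 9.05, 5.94 and 7.43 on the controls. IAGLU, which joins glucose to the auxin indole-3-acetic acid, was at 6.5 to 8.02 with a median of 6.87 on the sound arrays, against 9.34, 6.63 and 6.91. AT3G44450, an inhibitor of blue-light cryptochrome receptors, was at 6.47 to 8.33 with a median of 7.51 on the sound arrays, against 9.75, 6.78 and 10.14. For AT3G44450 2 controls were above every sound array, and for HYH and IAGLU replicate 1 alone was.

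GH9C2, AT3G09440 and PYK10, like HYH and IAGLU, were highest on control replicate 1 and lowest on 2. GH9C2, of the cellulase family, was at 5.91 to 7.45 on the sound arrays, against 9.66, 6.47 and 8.22 on the controls. AT3G09440, a cytosolic HSP70 chaperone, was at 8.1 to 10.11 on the sound arrays, against 10.88, 7.97 and 9.95. PYK10, a beta-glucosidase known best from the endoplasmic reticulum bodies of roots, was at 4.14 to 7.94 with a median of 5.98 on the sound arrays, against 8.67, 5.38 and 5.82. Control replicate 1 also had the highest mean of the 5 root markers measured, 6.558, against 4.698 to 6.294 on the sound arrays and 5.142 and 5.216 on the other 2 controls, and the root hair markers EXPA7 and EXPA18 were at 5.46 or lower on every array. The part of root tissue in the members' ranges was not tested, and in whole rosettes fewer cells of a type and less RNA per cell cannot be told apart. TRY, a regulator of leaf hairs that is no member, was at 4.84 to 6.1 on the sound arrays and 7.57, 5.35 and 6.64 on the controls, the order of the 28 members above.

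**Figure D2:**
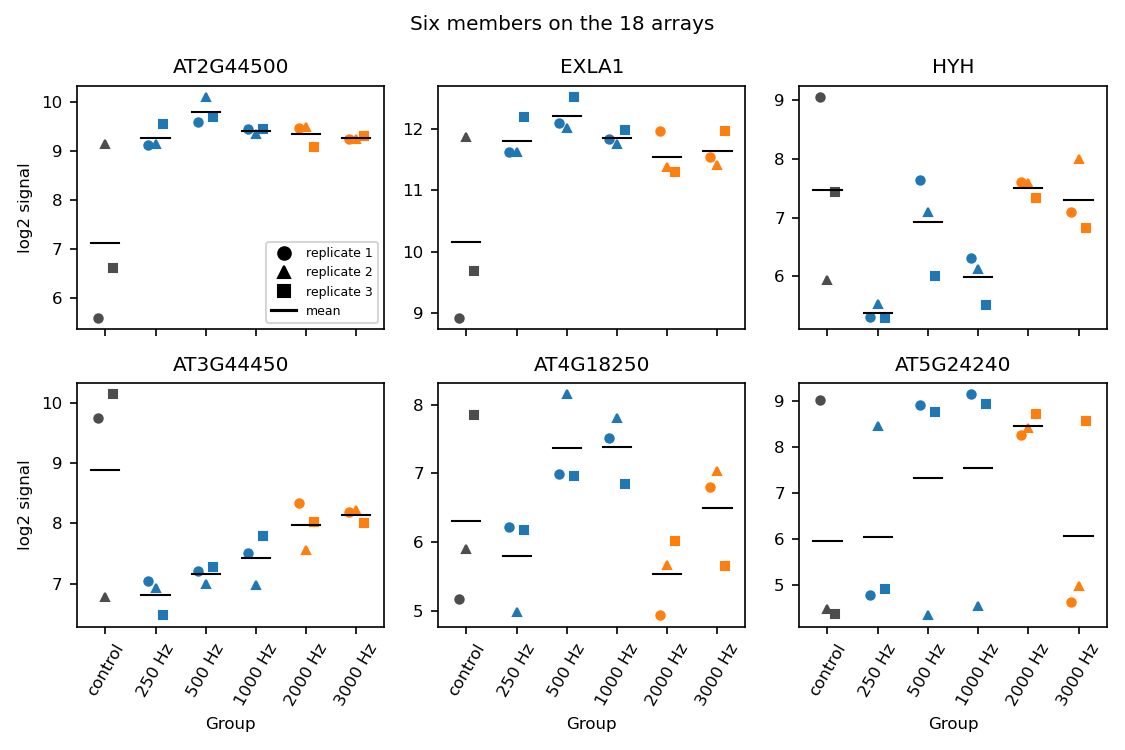
Log2 signal of 6 members on every array, with the control group at the left and sound groups in order of frequency. Points are arrays, with a symbol for each replicate number, and lines are means of 3. AT2G44500 and EXLA1 have control replicate 2 among the sound arrays, HYH and AT3G44450 have it at the low end of the controls, AT4G18250 has a high control replicate 3, and AT5G24240 has 2 separate levels.

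A common scale shows how far the sound arrays lay from each control. With control replicate 1 set to 0 and control replicate 2 to 1 for each member, the 62 members highest on 2 and lowest on 1 had a median position of 0.843 to 1.181 over the 15 sound arrays and of 0.381 on control replicate 3. The 3 arrays of 500 Hz, at 1.046, 1.081 and 1.181, were past control replicate 2, as were 250 Hz replicates 1 and 3 at 1.013 and 1.109 and 1000 Hz replicate 3 at 1.03. The 28 members with the opposite order had median positions of 0.791 to 0.994 on the arrays of 250, 500 and 1000 Hz, 0.592 to 0.779 on those of 2000 and 3000 Hz and 0.571 on control replicate 3. In the medians of these 28, both higher frequencies therefore lay closer to control replicate 1 than any array of the lower frequencies did. The nearest medians were 0.779 at 3000 Hz replicate 3 and 0.791 at 500 Hz replicate 1. Their quartiles over members overlapped, at 0.7 to 0.881 and 0.652 to 0.985. The scale is made of control values that chose the members, and positions of other probe sets are not given. These positions are therefore descriptions without a background. As given above, the higher and lower frequencies also differ in spike signal, so frequency and labelling cannot be told apart.

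**Figure D3:**
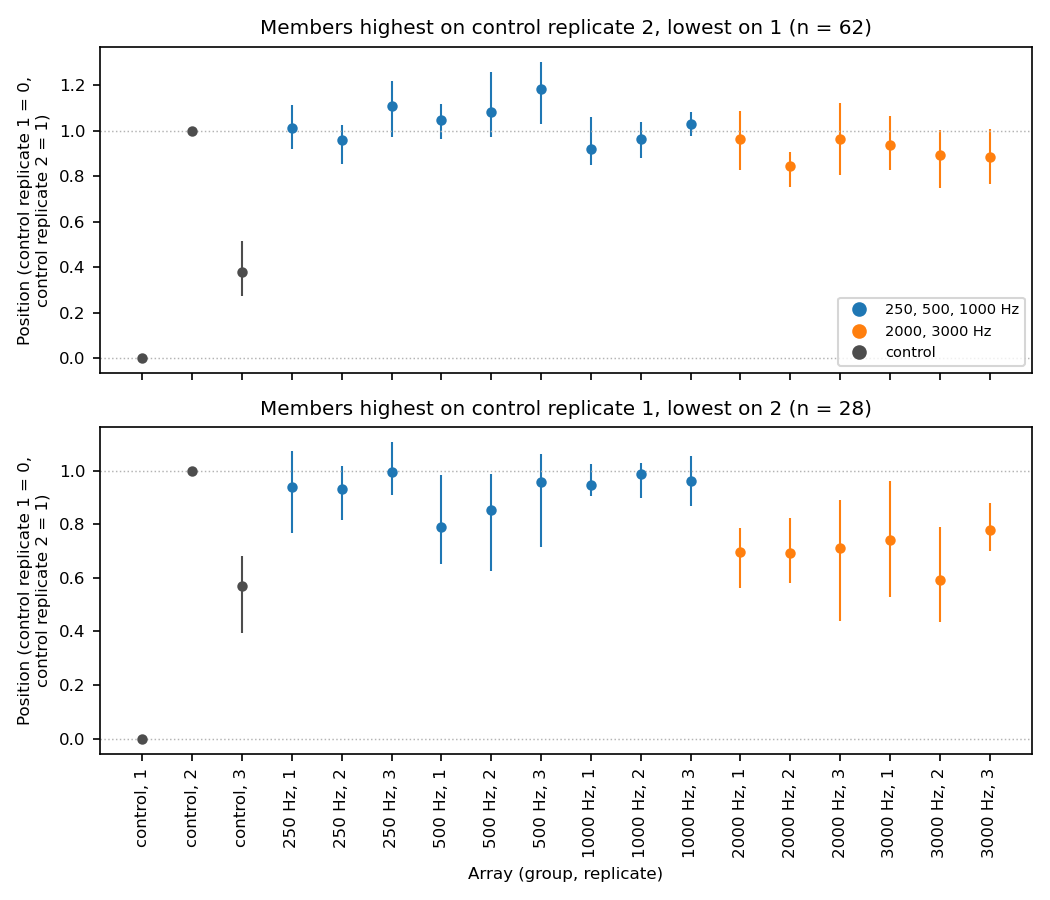
Median position of each array (points) with the quartiles over members (bars), on a scale where control replicate 1 is 0 and control replicate 2 is 1. The upper panel holds the 62 members highest on control replicate 2 and lowest on 1, and the lower panel the 28 with the opposite order, where the 2000 and 3000 Hz arrays lie at 0.592 to 0.779.

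Within the sound arrays, where no control entered the fit, the share of members called was above the background in 6 of 7 comparisons. The comparisons share arrays, so these are not 6 separate results. That of 1000 minus 500 Hz rests on 1 member. The 11 members of 1000 minus 250 Hz became 0 without 250 Hz replicate 2 or 1000 Hz replicate 2. A moderated F test of limma over the 5 frequencies called 78 of 144 members at an adjusted p under 0.05, against 27.4% of all 22746 probe sets and 39.8% of the 12873 with a mean of at least 6. Among 250, 500 and 1000 Hz, 30 members were called, against 6.19% of all and 8.65% of the 12873, and dropping 250 Hz replicate 1 or 2, 500 Hz replicate 2 or 1000 Hz replicate 2 left 5, 3, 10 and 18. Between 3000 and 2000 Hz the share was below the background, with 4 members called, or 2.78%, against 6.58% of all probe sets and 9.94% of the 12873. That count became 9, 10 and 2 when 250 Hz replicate 3, 2000 Hz replicate 2 and 3000 Hz replicate 2 were dropped in turn. Members vary more than other probe sets also between arrays of one sound group, with a median pooled SD of 0.375 against 0.144 over the 12873, so equal shares do not stand for equal differences. With the controls in the fit, whose spread made the choice, 9 members passed the F test over 5 frequencies. Counts over all probe sets with an array dropped or the controls added are not given, here or below. Whether such losses are particular to the members therefore cannot be read from these counts.

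**Figure D4:**
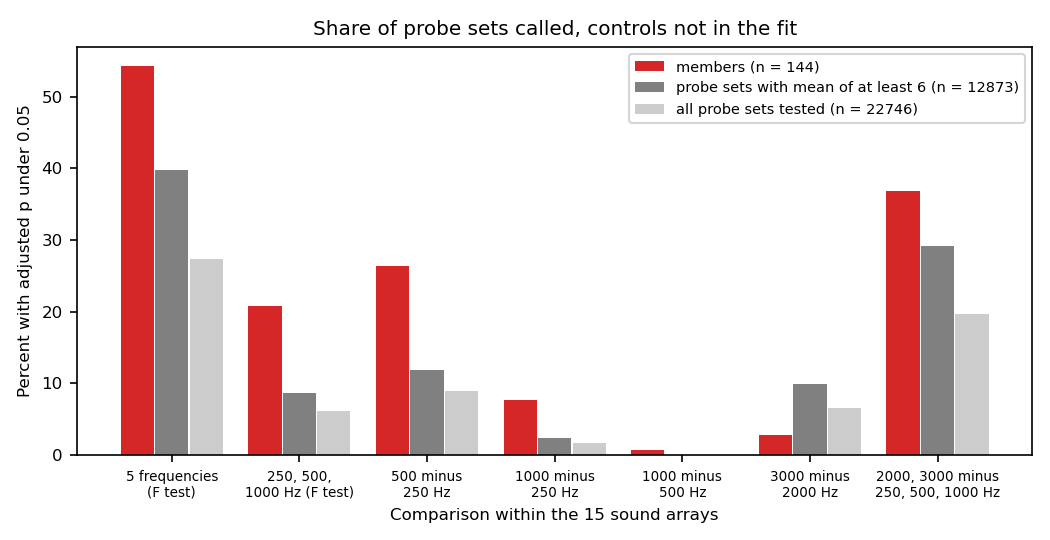
Percent of probe sets with a limma adjusted p under 0.05 in 7 comparisons within the 15 sound arrays, for the 144 members, the 12873 probe sets with a mean of at least 6, and all 22746. Members reach 26.4% for 500 minus 250 Hz and 2.78% for 3000 minus 2000 Hz.

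Members called between the 2 higher and the 3 lower frequencies mostly had, at the higher ones, the sign of control replicate 1 minus 2. In limma's test of the mean of 2000 and 3000 Hz minus the mean of 250, 500 and 1000 Hz, 53 members passed, 21 higher and 32 lower, against 19.6% of all probe sets, 9.59% higher and 10% lower, and 29.1% of the 12873. Of the 62 members highest on control replicate 2 and lowest on 1, 26 were lower at the higher frequencies and 0 higher. Of the 28 with the opposite order, 19 were higher and 1 lower. The same counts by control order were not made over the 12873. They therefore have no matching background share and are not a result about the members. Across the 144 members, the difference of control replicate 2 minus 1 had a Pearson r of -0.591 and a Spearman rho of -0.531 with this frequency difference. The 12873 had an r of -0.457 and a rho of -0.464, so the relation was not particular to the members. These are descriptions over probe sets that share their arrays. The members were chosen for wide control differences, which by itself can raise r, so the 2 values of r cannot be compared in size. As given above, the frequencies compared also differ in their spike signal, so frequency and labelling cannot be told apart. The 3′ minus 5′ signal of actin, a measure that moves with RNA quality and labelling, ran along the same split, with group means of 1.963, 2.063 and 2.007 at 250, 500 and 1000 Hz and 1.747 and 1.613 at 2000 and 3000 Hz. Single arrays overlapped, at 1.56 to 1.84 on the higher frequencies and 1.74 to 2.3 on the lower ones, and the part of this measure in the members' differences was not tested.

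Of the members low on control replicate 2, IAGLU, HYH and AT3G44450 were among those higher at 2000 and 3000 Hz. IAGLU had 7.67, 8.02 and 7.9 at 2000 Hz and 7.33, 7.14 and 7.14 at 3000 Hz, against 6.5 to 6.96 on the 9 arrays of the lower frequencies, a difference of 0.808 ± 0.073 (SE, limma adjusted p = 3.14e-05). Its arrays did not overlap between the 2 sets. HYH was higher by 1.314 ± 0.229 (limma adjusted p = 0.00157), with 6.82 to 7.99 on the 6 arrays of the higher frequencies and 5.29 to 7.64 on the lower ones, so its arrays did overlap, by way of the 500 Hz arrays. AT3G44450 was higher by 0.919 ± 0.139 (limma adjusted p = 0.000727), and AT3G16560, a protein phosphatase 2C family gene, by 0.952 ± 0.104 (limma adjusted p = 9.25e-05). AT5G54130 was higher by 0.748 ± 0.075 (limma adjusted p = 5.12e-05) and AT5G42760 by 1.191 ± 0.225 (limma adjusted p = 0.00265).

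Of the members high on control replicate 2, XTH18 and ATG8E were among those with a lower mean over 2000 and 3000 Hz. XTH18, a xyloglucan-modifying wall enzyme, had 7.15, 7.16 and 6.95 at 2000 Hz and 8.01, 8.41 and 9.62 at 3000 Hz, against 8.01 to 11.09 on the lower-frequency arrays, a difference of -1.748 ± 0.327 (SE, limma adjusted p = 0.00249). The 3 arrays of 2000 Hz were below all others of sound. Those of 3000 Hz overlapped with 250 Hz and were not lower than it in their mean. The difference of XTH18 is thus not one of both higher frequencies from each lower one. ATG8E fell by 0.727 ± 0.111 on the log2 scale (limma adjusted p = 0.000771), and AT1G35350 of the PHO1 family by 0.847 ± 0.096 (limma adjusted p = 0.000117). AT4G28085, whose role is not given here, had the second widest control range and fell by 1.171 ± 0.125 (limma adjusted p = 7.81e-05), with 8.4 to 9.33 on the 6 arrays of the higher frequencies and 9.53 to 10.4 on the lower ones. EXLA1 had a difference of -0.365 ± 0.131 that did not pass (limma adjusted p = 0.0657). Of the 17 calls of named genes in this comparison, 14 held with each sound array left out in turn, and those of AT5G61590 (adjusted p = 0.0316), AT1G20070 (0.0436) and GH9C2 (0.0203) did not, that of GH9C2 ending without 2000 Hz or 3000 Hz replicate 2 and the first and second without 8 and 11 of the 15 arrays left out in turn. With the controls in the limma fit 8 members passed, among them XTH18 (adjusted p = 0.0151), AT3G16560 (0.0248), HYH (0.0287) and AT1G35350 (0.0405).

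Members highest on control replicate 3 were mostly higher at 500 than at 250 Hz. In limma's test of 500 minus 250 Hz, 38 members passed, 28 higher and 10 lower, against 8.93% of all probe sets, 3.91% higher and 5.02% lower, and 11.9% of the 12873. The median difference over members was 0.443, against 0.017 over all probe sets, and 102 of 144 were positive, against 53.4% of all probe sets. Of the 26 members highest on control replicate 3, 7 of 11 with the lowest on 1 and 8 of 15 with the lowest on 2 were called higher at 500 Hz and none lower, with median differences of 1.57 and 1.577. Of the 15 highest on 1 and lowest on 3, 1 was higher and 3 lower, with a median of -0.823. Counts by control order were not made over the 12873 here either, so these have no matching background share and are not a result about the members. Across members the value of control replicate 3 minus the mean of 1 and 2 had a Pearson r of 0.511 with 500 minus 250 Hz and of 0.598 with 1000 minus 250 Hz. Spearman rho was 0.397 and 0.49. These 2 comparisons share the 250 Hz arrays. The 12873 had an r of 0.348 and 0.317, not comparable in size because the control values chose the members. All other member correlations between the 2 control differences and the frequency differences had an r between -0.147 and 0.025, apart from the -0.591 given above.

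**Figure D5:**
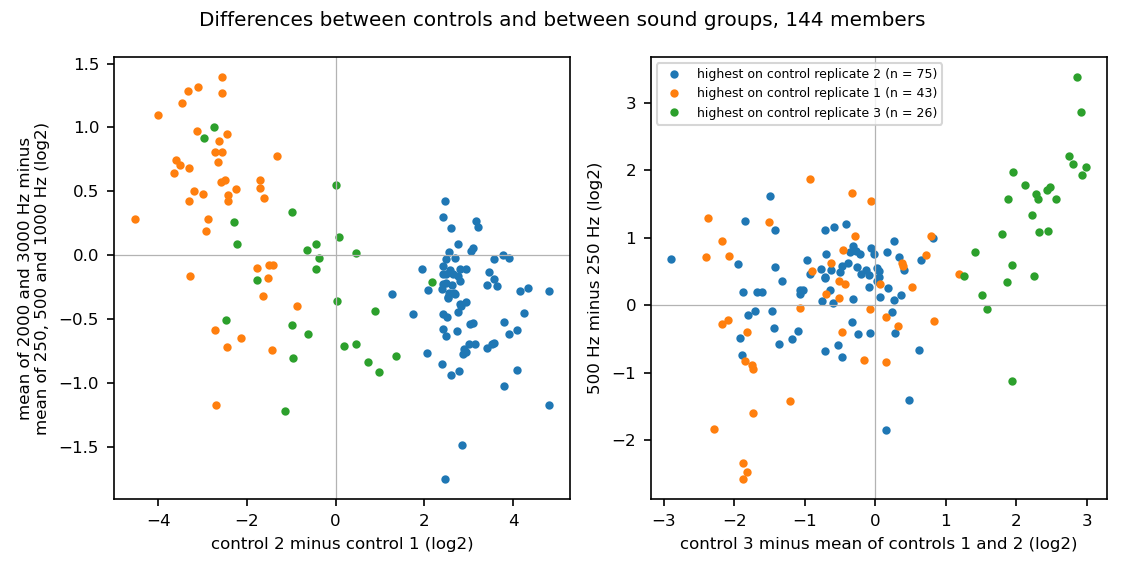
Differences between control replicates (x axes, log2) against differences between sound frequencies (y axes, log2) for the 144 members, each a point, coloured by the control replicate on which it was highest. Left, members with control replicate 2 above 1 lie mostly below 0 for the higher minus the lower frequencies. Right, members highest on control replicate 3 lie mostly above 0 for 500 minus 250 Hz. The control values on the x axes are those that chose the members.

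A receptor-like kinase gene and a lectin gene were among the members called between 500 and 250 Hz. AT4G18250, a receptor-like kinase gene, had 6.99, 8.15 and 6.96 at 500 Hz, against 6.22, 4.98 and 6.17 at 250 Hz, a difference of 1.577 ± 0.446 (SE, limma adjusted p = 0.0431). AT1G13470 had 7.88, 8.37 and 7.26 at 500 Hz, against 6.51, 5.37 and 5.85 at 250 Hz, a difference of 1.927 ± 0.521 (limma adjusted p = 0.0366). In both, the arrays of the 2 groups did not overlap, and control replicate 3, at 7.85 and 8.47, lay among the 500 Hz arrays or just above them. CHI, a putative chitinase, had 9.23, 10.41 and 7.47 at 500 Hz, against 7.8, 7.47 and 6.9 at 250 Hz, and did not pass (1.647 ± 0.722, limma adjusted p = 0.162). JAL23, a jacalin-related lectin that was low on control replicate 3, had 6.25, 7.32 and 8.36 at 500 Hz, against 10.5, 10.11 and 8.74 at 250 Hz, and it fell by 2.473 ± 0.538 (limma adjusted p = 0.0167).

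HYH, XTH33 and COR27 passed in 500 minus 250 Hz as well. HYH had 7.64, 7.1 and 6.01 at 500 Hz, against 5.3, 5.53 and 5.29 at 250 Hz, a difference of 1.543 ± 0.354 (SE, limma adjusted p = 0.0203). XTH33, a wall enzyme of the same family as XTH18, had 9.35, 8.47 and 8.91 at 500 Hz, against 7.94, 7.79 and 7.67 at 250 Hz, a difference of 1.11 ± 0.247 (limma adjusted p = 0.0181). COR27, a cold-regulated gene tied to the circadian clock, had 7.04, 7.79 and 8.8 at 500 Hz, against 9.37, 9.37 and 10.42 at 250 Hz, and fell by 1.843 ± 0.499 (limma adjusted p = 0.0369). None of these pairs of groups overlapped. AT2G44500 was higher at 500 Hz by 0.537 ± 0.147 (limma adjusted p = 0.0386), and GH9C2 fell by 0.84 ± 0.215 (limma adjusted p = 0.0308).

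These calls rest on few arrays. With 250 Hz replicate 1 left out, 8 members were called in 500 minus 250 Hz, with 250 Hz replicate 2 left out 6, and with 500 Hz replicate 2 left out 6. With the controls in the fit 3 members passed, JAL23 among them (limma adjusted p = 0.0468). Each of the 11 calls of named genes for 500 minus 250 Hz ended without 250 Hz replicate 2, and in all without 3 to 7 of the 15 arrays left out in turn. In 1000 minus 250 Hz 11 members passed, 7 higher and 4 lower, against 1.67% of all probe sets, 2.32% of the 12873, and 0.805% of all higher and 0.862% lower. By limma that count was 0 once 250 Hz replicate 2 or 1000 Hz replicate 2 was dropped (47 and 44 at an unadjusted p under 0.05), 1 on dropping 250 Hz replicate 1, 3 and 7 on dropping 1000 Hz replicates 1 and 3, and 6 on dropping 3000 Hz replicate 1. Among them, AT4G03450, an ankyrin repeat gene, had 8.03, 8.85 and 7.89 at 1000 Hz, against 6.93, 6.26 and 6.77 at 250 Hz (1.603 ± 0.365, limma adjusted p = 0.0456). In 1000 minus 500 Hz 1 member passed, lower, against 0.022% of all probe sets and 0.0311% of the 12873 (0.0132% of all higher, 0.00879% lower), and 0 to 4 did with 1 array left out.

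Between 3000 and 2000 Hz, which are alike in spike signal, the 4 members that passed were an HSP70, a root gene, an auxin gene and AT4G33960, 2 of them higher and 2 lower, against 4.46% and 2.12% of all probe sets. AT3G09440, the HSP70, had 9.44, 9.61 and 10.11 at 3000 Hz, against 8.18, 8.93 and 8.1 at 2000 Hz, a difference of 1.317 ± 0.213 (SE, limma adjusted p = 0.00277). PYK10 had 7.11, 7.11 and 6.98 at 3000 Hz, against 4.14, 5.41 and 4.94 at 2000 Hz, a difference of 2.237 ± 0.551 (limma adjusted p = 0.0263). IAGLU fell by 0.66 ± 0.114 (limma adjusted p = 0.00366) and AT4G33960 by 0.78 ± 0.178 (limma adjusted p = 0.0177). The calls of AT3G09440 and IAGLU held with each sound array left out in turn, and with the controls in the limma fit 0 members passed, or 5 at an unadjusted p under 0.05. That of PYK10 ended without 2000 Hz replicate 1 or 3 or any 1 of the 3000 Hz arrays, and that of AT4G33960 without 2000 Hz replicate 3 or 3000 Hz replicate 1 or 2. Beside PYK10, the mean of the root markers, which includes it, was 5.81 ± 0.066 at 3000 Hz and 4.943 ± 0.232 at 2000 Hz, and 2 of the 5 markers passed, PYK10 itself and NAI2, a protein of the same bodies, higher by 1.47 ± 0.385 (limma adjusted p = 0.0356).

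AT5G24240, a phosphatidylinositol 4-kinase gamma gene with the third widest control range, differed from the members above in form. It had 4.78, 8.45 and 4.91 at 250 Hz, 8.9, 4.34 and 8.76 at 500 Hz and 9.14, 4.54 and 8.93 at 1000 Hz. It had 8.27, 8.41 and 8.71 at 2000 Hz and 4.63, 4.97 and 8.57 at 3000 Hz, against 9.01, 4.48 and 4.37 on the controls. Its 18 values thus fell into 8 between 4.34 and 4.97 and 10 between 8.27 and 9.14, with both levels present in 5 of the 6 groups and a gap of 3.3 between them. Among the 12873 probe sets the next widest gap with at least 4 arrays on each side was 1.56. No comparison of frequencies passed for AT5G24240. Another 9 probe sets, none of them a member, split the same 8 arrays from the same 10. Among these, AT3G55920, which is not among the 12873, was at 7.68 to 8.55 on the 8 and 3.91 to 4.24 on the 10. Whether the plants on the 2 sets of arrays were alike in genotype was not tested. The control range of AT5G24240 may therefore differ in kind from those above.

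Few members were on gene lists of known pathways, but only the 54 of 144 with 1 gene could be matched to a list. Of 25 xyloglucan enzyme and expansin genes, 10 were annotated on the array and 3 were members, EXLA1, XTH18 and XTH33. Of all 13513 probe sets with 1 gene, 54 were members, and the difference from this share was not tested. Of those 10, 5 passed the F test over the 5 frequencies, against 27.4% of all probe sets and 39.8% of the 12873. In 500 minus 250 Hz 1 was called higher and 1 lower, against 3.91% and 5.02% of all, and for the higher minus the lower frequencies 0 were called higher and 2 lower, against 9.59% and 10%. Of 40 rapid stress and touch genes 11 were annotated and AT1G02660 was a member. Of these 11, 3 passed the F test, a share near that of all probe sets and below that of the 12873, 2 were called higher and 0 lower at 500 than at 250 Hz, and 1 was called higher and 2 lower at the higher than at the lower frequencies. Of 28 carbon starvation genes 7 were annotated and none was a member, and 2 of the 7 passed the F test, again a share near that of all probe sets and below that of the 12873. DFR, an enzyme of anthocyanin synthesis, was the 1 member on the list of sugar and anthocyanin genes, at 5.23 to 8.82 on the sound arrays and 8.56, 7.69 and 5.95 on the controls, and it passed no comparison.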

How the data were processed

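The deposited table holds log2 signals of 22810 probe sets on 18 Affymetrix ATH1 arrays, made by the authors with Affymetrix Expression Console 1.1, per the submitters' processing notes, which also name RMA and MAS5 without saying which step each made. The values were used as deposited, after 64 control probe sets were set aside. Genes come from the platform annotation, updated through TAIR10.1 names; 13513 probe sets had 1 gene, 503 several and 8730 none. Members and gene lists were chosen with earlier results of these data known. Tests used limma 3.58.1 in R 4.3.3 (lmFit, eBayes with an intensity trend) on the 15 sound arrays, with Benjamini-Hochberg adjustment over 22746 probe sets and two-sided p-values, and were tested on simulated data. A control array was taken to stand apart clearly where the other pair lay within 0.333 of the range. Named genes are those with the largest control range in each such pattern, the smallest adjusted p in each test, list members and those at the edge of the choice. No sequence was used. P-values rest on a spread within groups of 3 arrays that is shared over the 5 sound groups and moderated by that of other probe sets. Leaving out an array of one frequency can thus change a comparison of other frequencies. The labels call the arrays biological replicates but do not say how many plants each held. Array number limits precision.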

Additional observations from a re-analysis of the deposited data

Results flagged for a closer look

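One signal outside the members stood above the controls. The poly-A spike probe sets, 24 in all, had a mean log2 signal of 6.343 ± 0.157 at 2000 Hz and 6.185 ± 0.18 at 3000 Hz, against 5.457 ± 0.042 in the controls (SD, n = 3 each), and all 6 of those arrays were above every control array. The 3′ minus 5′ signal of actin, a measure that moves with RNA quality and labelling, was 1.747 ± 0.086 at 2000 Hz and 1.613 ± 0.055 at 3000 Hz, against 1.94 ± 0.017 in the controls, and the lower frequencies, given above, were at or above the controls in their means. The part of these measures in the members' differences was not tested. Groups of 3 arrays are too small for a check of single outlying arrays.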

How the results depend on the processing

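The 3 control arrays decide the members: of the 144, 56 to 106 were chosen again with 1 control left out, 76 without control replicate 1 and 56 without replicate 2, because the range then rests on 2 arrays. Another mean minimum, the SD, median centring, quantile normalization and, added after seeing the data, leaving out the named genes before the 150 were taken kept 122 to 144. A clear array apart was found for 79 members, for 40 with a limit of 0.2 of the range, for 144 with 0.5, by construction, and for 168 of 294 among 300 probe sets. With all 18 arrays in the fit, where control spread enters by construction, the members called were 9 (5 frequencies), 1 (250, 500 and 1000 Hz), 3 (500 minus 250), 0 (1000 minus 250), 0 (1000 minus 500), 0 (3000 minus 2000) and 8 (higher minus lower frequencies), by limma, where the 3 counts of 0 were 20, 8 and 5 at an unadjusted p under 0.05. With 1 sound array left out they were, in the same order, 67 to 83, 3 to 36, 6 to 45, 0 to 15, 0 to 4, 2 to 10 and 47 to 57. Counts over all probe sets under these settings are not given beside them, so no share can be compared. The 1 member of 1000 minus 500 Hz became 2 without the intensity trend, 2 among probe sets with a mean of at least 6, and 0 with median centring (47 at an unadjusted p under 0.05). The numbers do not pair the arrays: over 30 pairs with the same number, deviations from group means correlated at -0.325 to 0.351, and 8 were over 0.1. A fit with the replicate number as a block called 80, 33, 38, 13, 0 (43 at an unadjusted p under 0.05), 4 and 53 members in that order by limma, and 4 of 15 arrays correlated best with their own number. With that block limma's calls of named genes ended for AT2G44500 (adjusted p = 0.0554) and AT4G18250 (0.056) in 500 minus 250 Hz, for JAL23 in 1000 minus 250 Hz, for AT1G13470 among 250, 500 and 1000 Hz and for AT4G37240 among 5 frequencies, and for no others. Of 402 values for calls of named genes under the settings other than leaving out an array, 333 stayed past the threshold, as did 824 of 1005 with an array left out, and 0 reversed. The cause of calls lost was not tested. Signals near 4, as on pollen probe sets, are near background, where differences are not resolved.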

Other observations

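The 8 arrays on which AT5G24240 was low are control replicates 2 and 3, 250 Hz replicates 1 and 3, 500 Hz replicate 2, 1000 Hz replicate 2 and 3000 Hz replicates 1 and 2. Of 22745 other probe sets, 9 separated the same 8 arrays from the other 10 without overlap, 8 of them with the 8 arrays above, and none of the 9 is a member. AT3G55920 was at 7.68 to 8.55 on these 8 arrays and 3.91 to 4.24 on the other 10. AT3G05170 was at 5.62 to 6.86 on the 8 and 4.38 to 4.69 on the 10. AGL87, a MADS-box gene, was at 7.81 to 8.61 on the 8 and 6.94 to 7.56 on the 10. AT3G60170 ran the other way, at 4.72 to 4.91 on the 8 and 5.04 to 6.03 on the 10. AT5G57580 and AT5G57700, also among the 9, lie close together, with 19 genes from the first to the last of them in TAIR10.1. AT5G57580 was at 9.39 to 9.79 on the 8 and 7.9 to 8.85 on the 10, and AT5G57700 at 8.08 to 8.82 and 7.12 to 7.69. The remaining 3 of the 9 have no gene in the annotation used. The 2 sets of arrays come from the values themselves, cross the study's groups, and were not tested.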
